A study of Rattus norvegicus with 20 samples.

Results

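Genes that mark leukocytes, and among them the macrophages that live in the kidney, were followed across 20 whole-kidney RNA sequencing libraries of adult male Wistar rats. The 10 were Ptprc (ENSRNOG00000000655), Laptm5 (ENSRNOG00000011054), Csf1r (ENSRNOG00000018414), Cd68 (ENSRNOG00000037563), Itgam (ENSRNOG00000019728), C1qa (ENSRNOG00000012807), C1qb (ENSRNOG00000012749), C1qc (ENSRNOG00000012804), Cd74 (ENSRNOG00000018735) and Cd3e (ENSRNOG00000016069). They were chosen by gene symbol and followed by Ensembl identifier, and all 10 were listed in both deposited tables, out of 32907 genes in all. The rats were wild type and aged 10 to 12 weeks, and each received drug or vehicle for 28 days from an osmotic minipump under the skin. Saline was the vehicle of 4 rats, and 4 others received cyclosporine A. A mixture of 25% DMSO with 75% PEG500 (DMSO/PEG) was the vehicle of 6 rats, and 6 others received tacrolimus, aimed at a trough of 3.5 ng/ml. Each kidney was extracted whole, so a library mixes tubule, vessel, interstitial and blood cells. In such bulk samples, fewer cells of a type and less RNA per cell cannot be told apart.

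Cyclosporine A and tacrolimus are calcineurin inhibitors. By blocking calcineurin they keep the transcription factor NFAT out of the nucleus, which in T cells prevents induction of cytokines such as interleukin-2. The normal kidney holds a network of macrophages between its tubules that depends on the receptor CSF1R, expresses MHC class II with its invariant chain CD74, and is a main source of the C1q chains of complement, with far fewer T cells. Whether leukocyte genes differ between drug and vehicle is the question the comparison addresses within this study of how the kidney responds to each drug.

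Of the 9 member promoters found, 8 share a sequence feature that the choice of genes did not use. A set of 4 promoters is shown, with C1qa, which lacks the feature, among them. RefSeq promoters (GRCr8, 250 bases before to 50 after the gene start) matched 9 of the 10 members: Ptprc, Laptm5, Csf1r, Cd68, Itgam, C1qa, C1qb, Cd74 and Cd3e. GAGGAA, the core of the site bound by the macrophage transcription factor PU.1 (gene Spi1), was searched on both strands and occurred in 8 of the 9, all but C1qa, against 27.6% of 33469 promoters of the same length. The 250 bases before the start are printed 5′ to 3′ on the gene's strand for Itgam (chr1:192089342-192089591, plus strand), Ptprc (chr13:52259747-52259996, minus strand), Laptm5 (chr5:148371630-148371879, plus strand) and C1qa (chr5:154419934-154420183, minus strand). Capitals mark GAGGAA or its reverse complement TTCCTC.
Itgam: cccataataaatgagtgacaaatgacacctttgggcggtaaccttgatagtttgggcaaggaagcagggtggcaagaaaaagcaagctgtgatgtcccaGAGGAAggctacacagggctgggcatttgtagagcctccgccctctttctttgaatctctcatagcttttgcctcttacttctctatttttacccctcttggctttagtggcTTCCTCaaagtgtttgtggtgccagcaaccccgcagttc
Ptprc: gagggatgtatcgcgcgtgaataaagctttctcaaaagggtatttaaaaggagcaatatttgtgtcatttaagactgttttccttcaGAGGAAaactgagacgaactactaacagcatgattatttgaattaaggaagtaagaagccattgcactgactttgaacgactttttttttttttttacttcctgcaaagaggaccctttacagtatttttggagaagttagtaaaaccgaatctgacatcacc
Laptm5: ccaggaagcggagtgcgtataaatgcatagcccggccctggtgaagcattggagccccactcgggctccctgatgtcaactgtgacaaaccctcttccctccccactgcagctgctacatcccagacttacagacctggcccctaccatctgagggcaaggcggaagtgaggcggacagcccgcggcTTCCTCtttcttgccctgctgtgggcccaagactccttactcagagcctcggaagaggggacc
C1qa: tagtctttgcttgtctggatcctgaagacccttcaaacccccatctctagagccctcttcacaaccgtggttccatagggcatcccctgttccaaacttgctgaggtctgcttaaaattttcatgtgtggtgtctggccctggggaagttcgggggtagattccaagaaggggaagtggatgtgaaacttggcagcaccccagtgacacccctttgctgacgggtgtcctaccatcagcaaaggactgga
Itgam holds the letters once on each strand, 151 and 39 bases before its start. Ptprc holds them once, 163 bases before the start, and Laptm5 once on the opposite strand, 63 bases before it. Other motifs were searched in the same way. GGAAGT, an ETS-like core, was in 6 of the 9 promoters and in 22.6% of all. GGAAA, the core NFAT binds, was in 6 of 9 and in 62.7% of all, and it overlaps GAGGAA wherever an A follows. CCAAT was in 4 of 9 against 37.5%. TATAAA (Laptm5), TGCAAT (Ptprc) and TGACTCA (Cd68) were each in 1 of 9, against 14.2%, 8.37% and 4.63% of all promoters. The consensus sequence of NF-kappaB was in 0 of 9 against 0.111%. A match describes the letters only, and binding was not measured.

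Each library of the cyclosporine A table held 30464930 to 34302952 fragments assigned to genes, and each of the other table between 31670202 and 39358485. In the former, mitochondrial genes took 49.7% to 68.6% of fragments in saline vehicle and 80.2% to 90.8% with cyclosporine A. That left 10280412 to 17250801 fragments for all other genes in vehicle and 2904704 to 6546989 with cyclosporine A. In the tacrolimus table the mitochondrial share was 10.5% to 15.9%. The deposited values are FPKM, fragments per unit of gene length and of sequencing depth. In the cyclosporine A table they are relative to a total that includes the mitochondrial genes. For that table the values below were therefore rescaled by median-of-ratios size factors, which make the typical gene equal between libraries. The deposited scale is given beside part of them. Signs of named genes that turned on it are listed with the dependence of the results on processing. The tacrolimus table was already on such a scale. All 12 genes of a tubule and podocyte list passed the filter on low values in both tables.

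A pair of libraries stood apart for the leukocyte genes. Cyclosporine A replicate 4 had the highest rescaled level of its table for 10 of the 10 members. Its median ratio to the mean of the other libraries of its group was 2.81. It also had the largest mitochondrial share of its table, 90.8%, and the smallest size factor, 0.423, by which its values were divided. As deposited it was below another library of its group for Cd74 (52.1 against 56.0 FPKM in replicate 3) and Csf1r (1.32 against 2.12 in replicate 2). The same held for C1qb (2.59 against 3.58 in replicate 1). DMSO/PEG vehicle replicate 2 had the highest level of its group for 9 members, all but Cd3e, and of its table for 8, with a median ratio of 1.90. Results are therefore also given without these libraries.

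In DMSO/PEG vehicle, levels per gene length spanned 3 orders of magnitude. Cd74 (invariant chain of MHC class II, chromosome 18, 56071478 to 56080849, positions here and below as deposited, with rn6 named in the submitters' processing notes) stood at 474 ± 70.5 FPKM (SD, n = 6). It was above every other member in each library. The C1q chains followed, at 34.6 ± 13.5 FPKM for C1qc (chromosome 5, 155255005 to 155258392), 27.0 ± 9.07 for C1qa (155261250 to 155264143) and 23.0 ± 12 for C1qb (155246447 to 155252003), 3 neighbouring genes on the minus strand. Csf1r, the receptor for CSF1 and IL-34 (chromosome 18, 56414488 to 56458300), was at 13.8 ± 4.47 FPKM. Laptm5, a lysosomal membrane protein of blood cells (chromosome 5, 149047681 to 149069719), was at 10.9 ± 2.89. Cd68, a glycoprotein of macrophage lysosomes (chromosome 10, 56268720 to 56270640), was at 6.37 ± 2.15, and Ptprc, the phosphatase CD45 of nearly all leukocytes (chromosome 13, 55061562 to 55173692), at 3.66 ± 1.15. Lowest were Cd3e, a chain of the T cell receptor complex (chromosome 8, 49297608 to 49308806), at 0.731 ± 0.189 FPKM, and Itgam, the integrin CD11b of myeloid cells (chromosome 1, 199495298 to 199623960), at 0.457 ± 0.293. Group ranges of neighbours in this order overlapped except between Cd74 and C1qc and between Ptprc and Cd3e. In saline vehicle, on the rescaled values of the other table, Cd74 was again first at 85.2 ± 17.2 FPKM (n = 4), C1qc (4.77 ± 1.74) and C1qa (4.56 ± 1.03) next, and Cd3e and Itgam last. The tables were normalized separately, so levels are not compared between them.

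With tacrolimus, none of the 10 members passed the test. Levels of Ptprc, Cd68, Csf1r, Laptm5 and Cd74 differed from vehicle by 0.12 or less on the log2 scale, and the C1q chains had lower means, by 0.25 to 0.30. By limma on log2(FPKM + 1), called at an adjusted p under 0.05, 0 of 10 were called, and 0 had an unadjusted p under 0.05. Over all 17231 genes tested, 0.279% were called and 8.17% had an unadjusted p under 0.05. The groups overlapped for all 10 members, where 0.284% of genes had every tacrolimus library above every vehicle library and 0.644% the reverse. The median difference of the members was -0.11 log2 and that of all tested genes 0.00, with 8 members below 0 and 2 above. Adjusted p-values of the members ran from 0.721 to 0.976. With all libraries drawn from separate animals, these p-values cover the spread between the animals of this series.

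**Figure D1:**
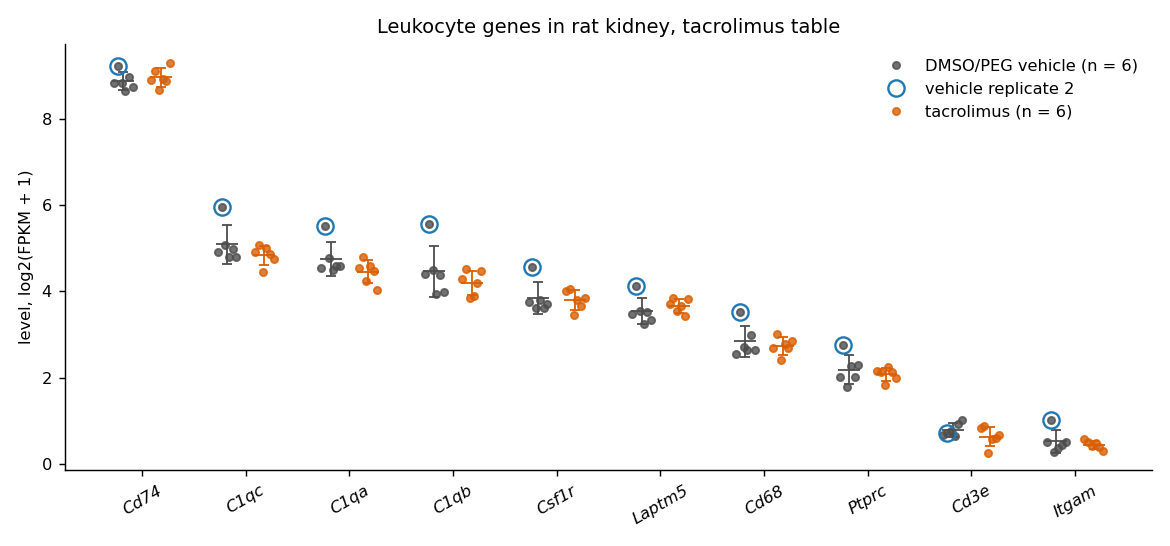
Levels of the 10 leukocyte genes in each library of the tacrolimus table, as log2(FPKM + 1). Points are libraries, horizontal bars are group means and whiskers are SDs, for DMSO/PEG vehicle (n = 6, grey) and tacrolimus (n = 6, orange). Vehicle replicate 2 is ringed and is the highest point of its group for every gene but Cd3e.

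The C1q chains showed the spread that 1 library can give. C1qa ran from 21.7 to 45.2 FPKM in vehicle (median 23.1) and from 15.5 to 27.0 with tacrolimus (median 21.9). Its difference was -0.30 ± 0.17 log2 (SE, limma adjusted p = 0.721). C1qb ran from 14.3 to 46.7 (median 20.1) and from 13.5 to 22.0 (median 17.8), a difference of -0.27 ± 0.24 (limma adjusted p = 0.859). C1qc ran from 26.8 to 61.7 (median 29.8) and from 21.0 to 33.0 (median 28.5), a difference of -0.25 ± 0.18 (limma adjusted p = 0.805). The groups overlapped for each chain, and the vehicle maximum was replicate 2 every time. Without that library the differences were -0.15 for C1qa, -0.04 for C1qb and -0.07 for C1qc.

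The receptor Csf1r ran from 11.2 to 22.8 FPKM in vehicle (median 12.3) and from 9.87 to 15.5 with tacrolimus (median 13.1). Its difference was -0.04 ± 0.16 log2 (limma adjusted p = 0.976), and 0.10 without vehicle replicate 2. Cd68 ran from 4.82 to 10.5 (median 5.38) and from 4.28 to 7.09 (median 5.68), with a difference of -0.10 ± 0.16, and 0.03 without that library. Itgam ran from 0.205 to 1.03 (median 0.390) and from 0.230 to 0.485 (median 0.360), with a difference of -0.08 ± 0.11, and 0.02 without it. For these myeloid genes the tacrolimus libraries lay inside the vehicle range or just below it. The sign of all 3 turned without vehicle replicate 2, and that of Csf1r also without tacrolimus replicate 3 (0.03).

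Ptprc ran from 2.45 to 5.73 FPKM in vehicle (median 3.43) and from 2.56 to 3.74 with tacrolimus (median 3.36), a difference of -0.11 ± 0.14 log2, and 0.00 without vehicle replicate 2. Laptm5 ran from 8.54 to 16.6 (median 10.3) and from 9.75 to 13.3 (median 11.9), a difference of 0.12 ± 0.13, and 0.24 without that library (limma adjusted p = 0.490). Cd74 ran from 399 to 600 (median 457) and from 406 to 625 (median 484), a difference of 0.09 ± 0.11, and 0.16 without it. The groups overlapped for all 3 genes. Cd3e ran from 0.556 to 1.02 FPKM in vehicle (median 0.661) and from 0.189 to 0.83 with tacrolimus (median 0.554). Its difference was -0.15 ± 0.11 log2 (limma adjusted p = 0.785), with 3 of 6 tacrolimus libraries below the lowest vehicle library. Each Cd3e value rested on 11 to 57 fragments. The 95% intervals of the differences included 0 for all 10 members and differed in width, from -0.78 to 0.25 for C1qb and from -0.16 to 0.33 for Cd74.

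With cyclosporine A, again no member passed the test once the values were rescaled. C1qb came nearest, with a mean of 4.08 ± 2.17 FPKM against 1.92 ± 0.72 in saline vehicle (SD, n = 4 each). Of the 10, 8 members had a mean of at least 0.1 FPKM over the table and were tested. The other 2, Cd3e and Itgam, were too low. By limma, 0 of 8 were called, against 0.42% of 14986 genes, and 1 of 8 (C1qb) had an unadjusted p under 0.05, against 14.7% of all. The groups overlapped for all 8, where 4.54% of genes lay wholly higher with the drug and 5.63% wholly lower. The median of the 8 differences was 0.08 log2 and that of all tested genes 0.01, with 5 members above 0 and 3 below. Mean FPKM was 97.3% of vehicle for Cd74, 85.8% for Csf1r, 75.3% for Ptprc, 117% for Laptm5 and 133% for Cd68.

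The scale decided what the same fragments showed. On FPKM as deposited, 6 of the 9 members tested were called lower with cyclosporine A and none higher, namely Cd74 (-1.39 log2), Csf1r (-1.11), Laptm5 (-0.92), C1qa (-0.83), Cd68 (-0.53) and Ptprc (-0.45). On that scale limma called 69.4% of all 15139 genes tested, 69.2% lower, and the median gene stood at -0.82. An unadjusted p under 0.05 was found for 7 of the 9 members and for 72.4% of genes. Against that median gene, 5 of the 9 members were higher and 4 lower. For 4 members the groups did not overlap, with cyclosporine A lower, as held for 60.8% of all genes. The share of the members called, 6 of 9, was close to the share of all genes. Over all genes, calls were 34 higher and 29 lower on rescaled values, 54 higher and 28 lower with equal totals over genes that are not mitochondrial, and 29 higher and 10477 lower as deposited.

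**Figure D2:**
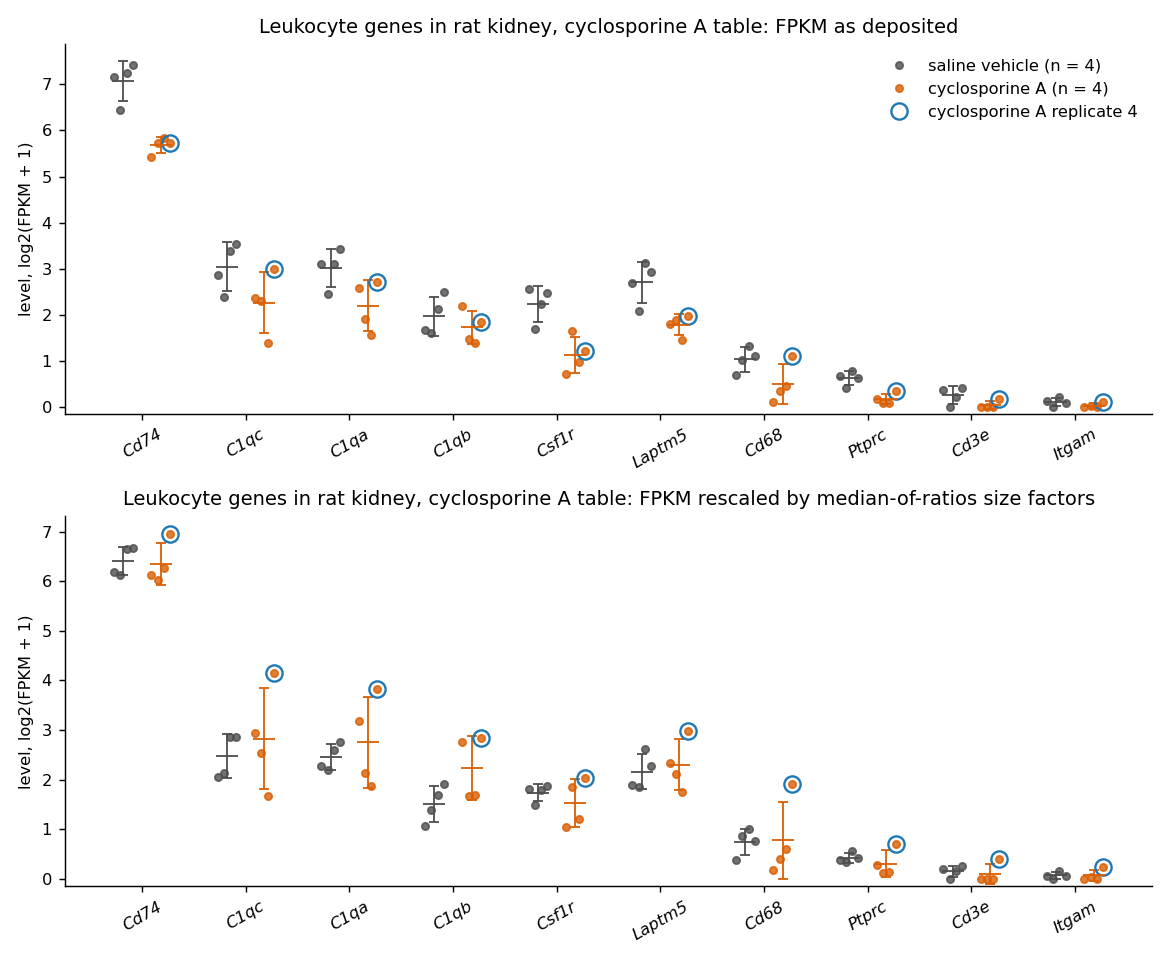
Levels of the 10 leukocyte genes in each library of the cyclosporine A table, as log2(FPKM + 1), on the deposited scale (top) and rescaled by median-of-ratios size factors (bottom). Points are libraries, horizontal bars are group means and whiskers are SDs, for saline vehicle (n = 4, grey) and cyclosporine A (n = 4, orange). Cyclosporine A replicate 4 is ringed and is the highest point of the table for each of the 10 genes on the rescaled scale.

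Of the C1q chains, C1qb stood at 1.1, 1.63, 2.22 and 2.75 rescaled FPKM in saline vehicle and at 5.78, 2.19, 2.22 and 6.13 with cyclosporine A. All 4 treated libraries were above the vehicle median and 2 were above every vehicle library, so the groups overlapped. The difference was 0.73 ± 0.31 log2 (limma adjusted p = 0.325), 0.53 without cyclosporine A replicate 4, and -0.24 as deposited. C1qa stood at 3.83, 3.57, 5.07 and 5.76 in vehicle and at 8.11, 3.36, 2.66 and 13.2 with the drug, 2 libraries below all vehicle libraries and 2 above all of them. Its difference of 0.30 ± 0.39 became -0.06 without replicate 4. C1qc stood at 3.16, 3.36, 6.26 and 6.30 in vehicle and at 6.72, 4.83, 2.20 and 16.6 with the drug. Its difference of 0.35 ± 0.46 became -0.09 without replicate 4, and was -0.78 as deposited.

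Because the 3 chains assemble together, their ratios within a library, which no scaling between libraries can move, were also taken, a measure chosen after the values had been seen. C1qb over C1qa was 0.414 ± 0.087 in saline vehicle (n = 4) and 0.666 ± 0.155 with cyclosporine A (n = 4). The ranges overlapped, from 0.286 to 0.478 and from 0.463 to 0.834. An exact two-sided permutation test gave p = 0.0571, adjusted to 0.343 over the 6 ratios compared, where the smallest p that 4 against 4 can give is 0.0286. In the tacrolimus table the ratio was 0.821 ± 0.148 in vehicle and 0.858 ± 0.258 with the drug (exact permutation p = 0.803). None of the 6 ratios had a p under 0.05, and the adjusted values ran from 0.343 to 0.926.

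The other members varied more between cyclosporine A libraries than their means differed. Csf1r stood at 2.49, 1.80, 2.45 and 2.68 rescaled FPKM in vehicle and at 1.05, 2.60, 1.31 and 3.12 with the drug, a difference of -0.21 ± 0.23 log2 (limma adjusted p = 0.719). It was -0.37 without replicate 4 and -0.04 without cyclosporine A replicate 1. Cd68 stood at 0.307, 0.827, 0.994 and 0.686 in vehicle and at 0.128, 0.329, 0.519 and 2.77 with the drug. Its difference of 0.02 ± 0.34 was near 0, and became -0.36 without replicate 4 and -0.10 without saline vehicle replicate 1. These Cd68 values rested on 3 to 59 fragments. Ptprc stood at 0.298, 0.264, 0.474 and 0.330 in vehicle and at 0.210, 0.0848, 0.0981 and 0.636 with the drug, so 3 treated libraries lay below every vehicle library and 1 above. The Ptprc difference was -0.11 ± 0.15, and -0.25 without replicate 4 (limma adjusted p = 0.323). Laptm5 stood at 2.73, 2.60, 5.10 and 3.87 in vehicle and at 4.05, 3.33, 2.38 and 6.92 with the drug, a difference of 0.14 ± 0.27, and -0.09 without replicate 4. Cd74 stood at 71.6, 69.0, 99.7 and 100.5 in vehicle and at 68.3, 64.0, 76.0 and 123 with the drug, a difference of -0.07 ± 0.22, and -0.27 without replicate 4.

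Cd3e and Itgam were near the limit of detection in this table. Cd3e had 12, 0, 6 and 12 fragments in saline vehicle and 0, 0, 0 and 5 with cyclosporine A, or 0.153, 0, 0.109 and 0.202 rescaled FPKM against 0, 0, 0 and 0.324. Itgam had 12, 0, 20 and 7 fragments in vehicle and 0, 3, 0 and 9 with the drug. A count of 0 allows up to 3 fragments, for Cd3e 0.138, 0.0967 and 0.112 rescaled FPKM in cyclosporine A replicates 1, 2 and 3 and 0.0637 in saline vehicle replicate 2. These limits cover counting error only. The vehicle libraries with fragments were at 0.109 to 0.202, and Cd3e was not tested on rescaled values. As deposited it was tested and not called (-0.21 log2, limma adjusted p = 0.161).

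**Figure D3:**
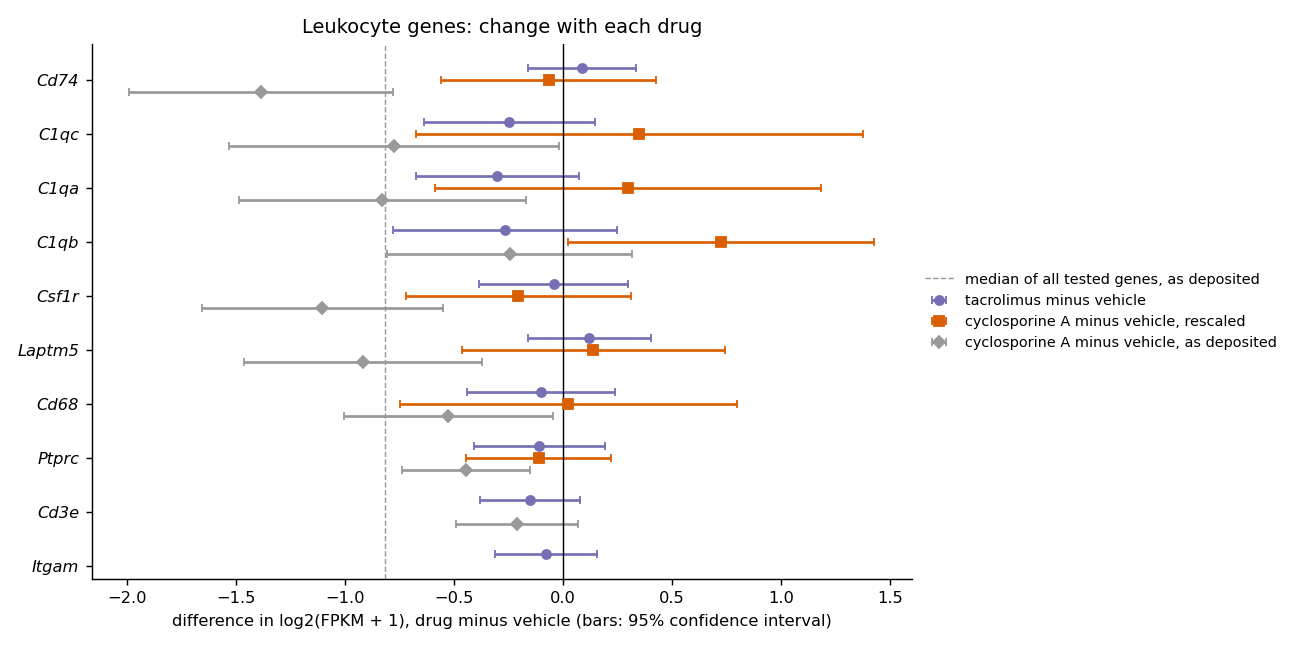
Difference in log2(FPKM + 1), drug minus vehicle, for each leukocyte gene tested, with 95% confidence intervals from limma. Circles are tacrolimus, squares cyclosporine A on rescaled values and grey diamonds cyclosporine A as deposited. The dashed line is the median of all tested genes on the deposited scale (-0.82), around which the diamonds lie.

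The drugs were also set against each other, as the cyclosporine A difference minus the tacrolimus difference. Drug, vehicle and table change together in this contrast and cannot be told apart. Of the 8 members tested in both tables, 0 were called, against 1.18% of 14700 genes (0.646% higher, 0.531% lower), and 1 (C1qb) had an unadjusted p under 0.05, against 15.1%. C1qb differed by 0.99 ± 0.39 log2 (95% interval 0.17 to 1.81, adjusted p = 0.235 from the combined limma fits). On FPKM as deposited its difference was 0.02 (adjusted p = 0.960 from the combined limma fits). C1qa and C1qc both differed by 0.60, with intervals from -0.33 to 1.53 and from -0.47 to 1.66, and both by -0.53 as deposited. On rescaled values without cyclosporine A replicate 4 they differed by 0.24 and 0.16, and the ranges without 1 library were 0.24 to 0.89 and 0.16 to 0.98. The other 5 differences ran from -0.16 (Csf1r) to 0.13 (Cd68). For Ptprc the difference was 0.00, with an interval from -0.43 to 0.42. As deposited, 3 of 9 members were called, Cd74, Csf1r and Laptm5, all on the lower side, against 66.2% of genes (0.397% higher, 65.8% lower). The same 3 members had an unadjusted p under 0.05, against 69.5% of genes.

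The libraries that stood apart were high in more than the 10 members. Summed levels of marker lists were compared with the mean of the other libraries of the same group. In cyclosporine A replicate 4 the neutrophil list was 5.47 times as high, the red cell and platelet list 4.40 times and complement genes other than C1q 3.25 times. Its T cell and NK cell list was at 1.74 times and its macrophage and monocyte list at 1.70 times. In DMSO/PEG vehicle replicate 2 the neutrophil list was 4.45 times as high, the B cell and plasma cell list 2.66 times, the T cell and NK cell list 1.46 times and the macrophage and monocyte list 1.32 times. Its red cell and platelet list was at 1.04 times. The neutrophil genes S100a8 and S100a9 show the contrast. S100a8 was at 17.2 FPKM in vehicle replicate 2 and at 0.864 to 2.55 in the other vehicle libraries. In cyclosporine A replicate 4 it was at 4.35 rescaled FPKM (22 fragments), with 0 fragments in the other 3. The part of blood cells in the members' levels was not tested.

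**Figure D4:**
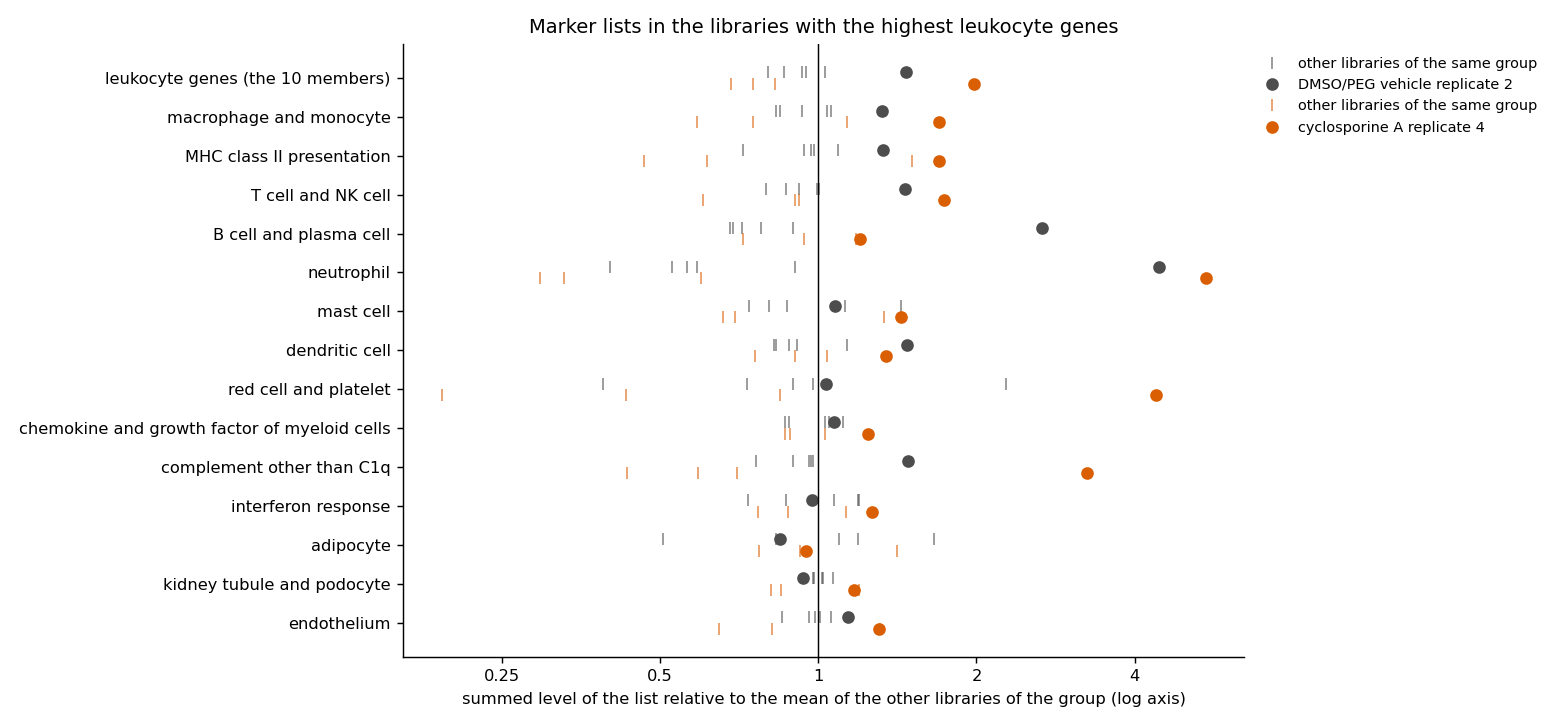
Summed level of each marker list in DMSO/PEG vehicle replicate 2 (grey circles) and cyclosporine A replicate 4 (orange circles), relative to the mean of the other libraries of the group, on a log axis. Vertical ticks are the other libraries of those groups, calculated in the same way. Neutrophil genes lie furthest right in both libraries, at 4.45 and 5.47, and red cell and platelet genes are high only in the cyclosporine A library of these 2.

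Beyond the members, no gene of the macrophage and monocyte list passed the test with either drug on rescaled values. As deposited, 11 of the 20 tested with cyclosporine A were called lower, with a median of -0.57 log2, where 69.2% of all genes were called lower and the median gene was at -0.82. With cyclosporine A, 20 of its 28 genes were tested, 11 above 0 and 9 below, with a median of 0.11 log2. Fcer1g, a signalling chain of Fc receptors, was at 13.0 ± 3.89 rescaled FPKM in vehicle and 26.9 ± 13.5 with the drug (0.93 log2, limma adjusted p = 0.201), with no overlap of the groups. Aif1, the macrophage protein IBA1, was at 14.4 ± 5.08 and 28.4 ± 10.9 (0.91 log2, limma adjusted p = 0.223). Itgb2, the partner chain of Itgam, was at 1.04 ± 0.169 and 0.516 ± 0.142 (-0.43 log2, limma adjusted p = 0.160), with no overlap. Of all genes tested, 4.54% lay wholly higher with cyclosporine A, as Fcer1g did, and 5.63% wholly lower, as Itgb2 did. As deposited, Fcer1g and Aif1 had the opposite sign (-0.34 and -0.35), whereas Itgb2 kept its sign (-1.01). Timd4, Vsig4 and Ccr2, which mark subsets of macrophages and monocytes, had 0 fragments in all 8 libraries. With tacrolimus, 27 of 28 were tested, 12 above 0 and 15 below, with a median of 0.00. The smallest p-values were those of Fcgr3a, a receptor for IgG (-0.35 log2, limma adjusted p = 0.561), Aif1 (-0.28, 0.609) and the haemoglobin scavenger receptor Cd163 (-0.22, 0.683). Fc receptor genes resemble each other, so their reads may be shared.

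MHC class II genes, whose products CD74 escorts, also held no called gene on rescaled values. As deposited, 8 of 13 were called lower with cyclosporine A (median -0.64 log2), RT1-DMa and RT1-DOa among them. On that scale 69.2% of all genes were called lower and the median gene was at -0.82. With cyclosporine A, 13 of 15 list genes were tested, 4 above 0 and 9 below, with a median of -0.11 log2. RT1-Bb, a class II beta chain, was at 2.85 ± 1.31 rescaled FPKM in vehicle and 8.52 ± 3.62 with the drug (1.27 log2, limma adjusted p = 0.119). RT1-DMa (-0.28, adjusted p = 0.392) and RT1-DOa (-0.32, 0.403) came next. The DM protein helps load peptides and the DO protein restrains DM. With tacrolimus all 15 were tested, with a median of 0.02, and RT1-DOb (0.24 log2, limma adjusted p = 0.533), RT1-Db2 (-0.15, 0.713) and the costimulator Cd86 (0.15, 0.777) had the smallest p-values. The RT1 genes form a family of near copies, so the split of reads among them is uncertain.

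Of the T cell and NK cell list, Cd3g had the smallest p in both comparisons and was called in neither on rescaled values. As deposited, 4 of 9 genes of the list were called lower with cyclosporine A, against 69.2% of all genes. Cd3g (-0.71 log2) and Cd8a (-0.45) were among them, where the median gene was at -0.82. Cd3g, a further chain of the T cell receptor complex, was at 0.451, 0.357, 0.475 and 0.345 rescaled FPKM in saline vehicle (9 to 19 fragments) and at 0, 0, 0 and 0.121 with cyclosporine A (0 or 1 fragment). The groups did not overlap, which with the drug lower held for 5.63% of genes, and the difference was -0.45 log2 (limma adjusted p = 0.0917). In the tacrolimus table Cd3g ran from 1.44 to 2.83 FPKM in vehicle (median 1.98) and from 0.835 to 2.14 with the drug (median 0.964). In 5 of the 6 treated libraries the level was below every vehicle library, and in replicate 6, at 2.14, it was not. The difference was -0.53 log2 (limma adjusted p = 0.201), and -0.65 without tacrolimus replicate 6, where it was called (adjusted p = 0.0168). Cd3d, its neighbour on chromosome 8, had 13, 0, 5 and 4 fragments in saline vehicle and 0 in each cyclosporine A library. With tacrolimus Cd3d was at 0.412 FPKM on average against 0.747 in vehicle (-0.33 log2, limma adjusted p = 0.498). Cd247, the zeta chain of the T cell receptor complex, had a higher median with tacrolimus (0.453 against 0.370 FPKM), with 4 of 6 libraries above the vehicle median and a difference of -0.04 log2 (limma adjusted p = 0.949).

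Other T cell genes had either sign. Of the T cell and NK cell list, 20 of 23 genes were tested with tacrolimus, 8 above 0 and 12 below, 4 with an unadjusted p under 0.05 on each side and 0 called, against 8.17% of all genes with such a p and 0.279% called. The costimulatory receptor Cd28 was at 4.96 ± 0.720 FPKM in vehicle and 3.65 ± 0.759 with tacrolimus (-0.36 log2, limma adjusted p = 0.281). Nkg7, of cytotoxic granules, was at 1.13 ± 0.587 and 1.90 ± 0.566 (0.47 log2, adjusted p = 0.472 by limma). With cyclosporine A only 8 of the 23 were tested. Cd8a, a coreceptor of cytotoxic T cells, was at 0.240 ± 0.146 and 0.0232 ± 0.0464 (-0.27 log2, limma adjusted p = 0.309), and Cd4, which rat macrophages also carry, at 1.44 ± 0.432 and 2.21 ± 1.18 (0.35 log2, limma adjusted p = 0.529, and -0.50 as deposited). Of 12 cytokine and related genes that depend on calcineurin and NFAT in T cells, 8 had 0 fragments in every library of the cyclosporine A table (Il2, Ifng, Il5, Il13, Il17a, Tnf, Csf2 and Cd40lg), and none was tested. With tacrolimus only Il2ra, the alpha chain of the interleukin-2 receptor, was tested, at 0.371 ± 0.216 FPKM in vehicle and 0.384 ± 0.126 with the drug (0.02 log2, limma adjusted p = 0.979).

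In the lists of other leukocytes, too, no gene was called on rescaled values. As deposited with cyclosporine A, 1 of 7 B cell and plasma cell genes (Ighm), 1 of 2 mast cell genes (Kit) and none of the 3 neutrophil or 4 dendritic cell genes were called lower. Of all genes, 69.2% were called lower on that scale. Neutrophil genes with tacrolimus had 6 of 7 tested below 0. Mpo, the peroxidase of neutrophil granules, was at 1.58 ± 0.748 FPKM in vehicle and 0.459 ± 0.333 with tacrolimus (-0.80 log2, limma adjusted p = 0.201). S100a9 (-1.09, limma adjusted p = 0.538) and S100a8 (-1.08, 0.554) followed, both highest in vehicle replicate 2, and at -0.68 and -0.59 without it. With cyclosporine A the 3 tested were Ncf1 (0.56, limma adjusted p = 0.268, and -0.39 as deposited), S100a8 (0.57, 0.630) and S100a9 (0.74, 0.634), the last 2 high in replicate 4 alone. All 10 B cell and plasma cell genes tested with tacrolimus were above 0 with a median of 0.13 log2, led by Pou2af1 (0.19, limma adjusted p = 0.640), Ms4a1 (0.11, 0.736) and Fcrla (0.18, 0.785). With cyclosporine A, 6 of 7 were above 0, led by Pax5 (0.37, limma adjusted p = 0.244), Ighm (0.31, 0.453) and Jchain (0.32, 0.652, and 0.01 log2 without replicate 4). Dendritic cell genes gave Batf3 the smallest p in both tables, at 0.61 log2 with cyclosporine A (limma adjusted p = 0.328) and -0.30 with tacrolimus (0.621). Zbtb46 (0.21) and Clec9a (-0.17) with cyclosporine A and Ccr7 (0.10) and Flt3 (0.14) with tacrolimus had adjusted p-values from 0.440 to 0.877 by limma. Mast cell genes were sparse. Mcpt1 was at 0.23 log2 with cyclosporine A and -0.65 with tacrolimus, Kit at -0.04 and 0.13, and Cpa3 at -0.22 with tacrolimus, with limma adjusted p-values from 0.598 to 0.928.

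Factors that feed or recruit myeloid cells showed no called gene on rescaled values either. As deposited with cyclosporine A, 9 of 15 were called lower, Csf2rb among them, and 3 of 17 complement genes other than C1q, Serping1 and C4a among them. The share of all genes called lower on that scale was 69.2%. The CSF1R ligand Csf1 was at 3.82 FPKM in DMSO/PEG vehicle and 4.25 with tacrolimus on average, and Il34, its other ligand, at 21.1 and 22.3. With cyclosporine A, Csf1 was at 0.610 and 0.255 rescaled FPKM (-0.35 log2, limma adjusted p = 0.358) and Il34 at 6.56 and 5.66. These 2 ligands were singled out after their values had been seen. By the smallest p, the chemokines Ccl4 (0.68 log2, limma adjusted p = 0.236) and Ccl2 (0.68, 0.306, and -0.09 as deposited) and the receptor subunit Csf2rb (-0.62, 0.278) led with cyclosporine A. With tacrolimus they were Cxcl10 (0.48, limma adjusted p = 0.447), Cxcl9 (-0.41, 0.525) and Csf2rb (0.21, 0.591), with 13 of 15 genes above 0. Complement genes other than C1q had a median of 0.12 log2 with cyclosporine A over 17 tested and -0.05 with tacrolimus over 18. Cfi (0.24, limma adjusted p = 0.336), Serping1 (-0.39, 0.393) and C4a (-0.24, 0.435) led with cyclosporine A. With tacrolimus C6 (-0.41, limma adjusted p = 0.350), Cfd (-1.29, 0.419) and C4b (-0.56, 0.549) did. Cfd, also an adipocyte product, was at 18.1 ± 8.91 FPKM in vehicle and 7.25 ± 5.57 with tacrolimus.

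Genes whose pattern over libraries was most like that of the members were sought among 12708 genes in the tacrolimus table and 9798 in the cyclosporine A table, in no list and with a mean of at least 1 FPKM. Likeness was Pearson's r, given as a description, with the members' mean profile after each group's mean had been taken out. Over the 12 libraries of the tacrolimus table the closest were Epsti1 (r = 0.965), Arhgap30 (0.962), Nckap1l, the blood cell subunit of the WAVE actin complex (0.949), Cybb, the phagocyte NADPH oxidase chain (0.947), and AABR07039446.2, described in the deposited file as similar to Toll-like receptor 13 (0.938). Without vehicle replicate 2 these values were 0.813 to 0.905. Over the 8 libraries of the other table they were Fgd2 (0.981), Vim, the filament protein vimentin (0.977), LOC100909712 (0.977), Rin3 (0.977) and Ifitm1, an interferon-induced membrane protein (0.975), and 0.927 to 0.954 without cyclosporine A replicate 4. LOC100909712 is described in the deposited file as cyclin L1. Genes of the lists were left out of this search. In the cyclosporine A table Atp6v1b1 of the tubule and podocyte list stood at 0.979 and Fcer1g of the macrophage list at 0.972. Slc12a3 of the tubule and podocyte list stood at -0.953 and Il34 at -0.974. High likeness in that table was therefore not confined to leukocyte genes.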

How the data were processed

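One bulk RNA-seq library per rat kidney was analysed, 20 in all. The authors deposited FPKM per gene in a table for each drug with its vehicle. HISAT2 and rn6 are named in the submitters' processing notes, and the counting program, strand setting and annotation are not given in the sources used here, so overlapping genes cannot be separated by strand. Fragment numbers were recovered from the deposited FPKM: values came out whole within 0.01 with the listed length for 74.6% of values in the cyclosporine A table and 100.0% in the tacrolimus table, and with a shorter length for 4441 further genes. Pairs of replicates differed by more than counting noise (chi-square per degree of freedom 17.6 to 197). FPKM of the cyclosporine A table was divided by median-of-ratios size factors (0.423 to 1.99). Log2(FPKM + 1) was tested with limma 3.58.1 (R 4.3.3, empirical Bayes with trend, two-sided, Benjamini-Hochberg over all genes), for genes with a mean of at least 0.1 FPKM. The procedure was tested on simulated data. Drugs were compared through the standard errors of both fits. The members and lists were chosen with earlier results of these data known. Named genes were all members, the up to 3 tested genes of each list with the smallest p in each drug comparison, and the 5 genes most like the members in each table. Genes given beyond that rule (Cd3d, Cd247, Csf1, Il34, and list genes named for having no fragment in a table) were chosen after their values were seen. Alternatives were another scaling, pseudocount, filter, block, array weights, voom on fragments, a single fit and leaving out each library.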

Additional observations from a re-analysis of the deposited data

Results flagged for a closer look

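Each gene's level was checked in every group for a library set far from the rest of its group, by the size of its gap relative to the group's range. Of the 40 combinations of gene and group, 10 were picked out, where chance picks about 1 in 20, and the genes are not independent. In cyclosporine A replicate 4 they were Cd68 (2.77 rescaled FPKM), Cd3e (0.324) and Itgam (0.183). There Cd3e rested on 5 fragments, against 0, 0 and 0 in the rest of the group. Itgam rested on 9, against 0, 3 and 0, so both gaps were near the limit of detection. In DMSO/PEG vehicle replicate 2 they were Cd68 (10.5 FPKM), Csf1r (22.8), Itgam (1.03), C1qa (45.2), C1qb (46.7), C1qc (61.7) and Laptm5 (16.6). Each was the highest value of its group. In both libraries the neutrophil list was also the highest of its group, at 5.47 and 4.45 times the mean of the other libraries, and what sets these libraries apart was not tested.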

How the results depend on the processing

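No member was called with tacrolimus under any alternative run, and none with cyclosporine A or for the difference between the drugs except on FPKM as deposited, where 6 and 3 were called. Values below are log2 differences. With cyclosporine A on FPKM as deposited, signs turned for Cd68 (-0.53), C1qa (-0.83), C1qb (-0.24), C1qc (-0.78), Laptm5 (-0.92), Ighm (-0.54), Jchain (-0.036), Cd4 (-0.50), Plin1 (-0.22), Ccl2 (-0.093), Batf3 (-0.075), Zbtb46 (-0.12), Kdr (-0.56), Isg15 (-0.34), Fcer1g (-0.34), Aif1 (-0.35) and Ncf1 (-0.39). They also turned with equal totals over genes that are not mitochondrial for Cd74 (0.026) and Kit (0.030), with a pseudocount of 0.1 for Cd68 (-0.23), with array weights for Cd68 (-0.15), C1qa (-0.020) and Laptm5 (-0.018), and with voom for Cd68 (-0.32) and Ucp1 (0.077). With tacrolimus Il2ra turned with array weights (-0.00961). For the difference between the drugs, signs turned as deposited for Cd68 (-0.43), C1qa (-0.53), C1qc (-0.53) and Laptm5 (-1.04), with a pseudocount of 0.1 for Cd68 (-0.11) and with equal totals for Ptprc (0.024). The cause was not tested for these. Leaving out each library in turn, values with cyclosporine A ran from -0.27 to 0.039 for Cd74, -0.36 to 0.22 for Cd68, -0.061 to 0.59 for C1qa, -0.086 to 0.73 for C1qc, -0.091 to 0.32 for Laptm5 and -0.10 to 0.024 for Kit. With tacrolimus they ran from -0.19 to 0.0044 for Ptprc, -0.16 to 0.034 for Cd68, -0.093 to 0.10 for Csf1r, -0.13 to 0.020 for Itgam and -0.019 to 0.10 for Il2ra. For the difference they ran from -0.14 to 0.076 for Ptprc, -0.25 to 0.33 for Cd68, -0.33 to 0.0039 for Csf1r and -0.21 to 0.20 for Laptm5. Leaving out 1 library moved the log2 difference by over 1.5 times, in at least 1 of these fits, for 7 of 8 members and 11 of 41 named list genes with cyclosporine A, 10 of 10 and 14 of 43 with tacrolimus, and 7 of 8 members for the difference. The call of Cd3g with tacrolimus was gained with array weights (adjusted p = 0.0336).

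Over all genes, the 63 calls with cyclosporine A became 10506 as deposited, 1 with no filter, 118 with a mean of at least 1, 3 with the replicate block, 207 with voom on fragments and 1 to 57 without 1 library. The lowest, 1, came without saline vehicle replicate 4, and leaving out saline vehicle replicates 1, 2 or 3 or cyclosporine A replicates 1 or 3 gave 6, 20, 2, 12 and 3. The 48 calls with tacrolimus became 30 with the replicate block. The 173 for the difference between the drugs became 9833 as deposited, 88 with the replicate block, 534 with a single fit over all libraries and 17 to 228 without 1 library. It was 31, 57, 63 and 17 without saline vehicle replicates 1 to 4 and 75 without cyclosporine A replicate 1. Animals share only a number across groups: same-numbered libraries correlated at -0.18 to 0.22, and the block changed no member's call. In the cyclosporine A table Cd68 rested on 3 to 59 fragments and Ptprc on 11 to 109.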

Other observations

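With tacrolimus, the adipocyte and tubule lists held called genes and the leukocyte lists held none, where 0.279% of all genes were called. With cyclosporine A on rescaled values, the tubule list held a called gene and the adipocyte and leukocyte lists none, where 0.42% of all genes were called. As deposited, some leukocyte lists too held genes called lower with cyclosporine A. In the adipocyte list 3 of 10 tested genes were called lower with tacrolimus, against 0.255% of all genes. They were Ucp1, the uncoupling protein of brown fat (15.1 ± 7.73 to 0.619 ± 0.984 FPKM, -3.33 log2, limma adjusted p = 0.00118), Thrsp, a factor of fat synthesis (-2.52, 0.00499), and the lipid droplet protein Cidea (-1.36, 0.0348). Cidea kept its call in only 2 of the 12 fits without 1 library, and lost it with no filter (adjusted p = 0.0626) and with voom (0.0539). Ucp1 lost its call with voom (0.0591). With cyclosporine A, Cidec (-0.50), Ucp1 (-0.19) and Plin1 (0.14) led the adipocyte list with limma adjusted p-values from 0.492 to 0.726. As deposited, 4 of 9 adipocyte genes were called lower, Cidec among them, against 69.2% of all genes. In the tubule list, Calb1, the calcium-binding protein of the distal tubule, fell with both drugs, from 198 ± 27.9 to 13.1 ± 0.921 FPKM with tacrolimus (-3.81 log2, limma adjusted p = 2.92e-11) and from 55.7 ± 13.8 to 15.1 ± 6.34 rescaled FPKM with cyclosporine A (-1.85, 0.0349). The cyclosporine A call was lost in 7 of the 8 fits without 1 library (highest adjusted p = 0.120), with no filter (0.0770) and with the replicate block (0.106). Slc12a3, the sodium chloride cotransporter, fell with tacrolimus (-1.24, limma adjusted p = 0.000229). Slc5a2 (0.94, 0.0573) and Umod (-1.36, 0.0655) with cyclosporine A and Nphs1 (-0.16, 0.641) with tacrolimus were not called. Slc5a2 was called without cyclosporine A replicate 4 (adjusted p = 0.0377), with equal totals (0.0396), array weights (0.0300) and voom (0.0206), and Umod with a mean of at least 1 (0.0423), with voom (0.0115) and as deposited (0.00187).

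In the interferon response list all 16 genes were above 0 with cyclosporine A on rescaled values, with a median of 0.32 log2 against 0.01 for all tested genes, 5 with an unadjusted p under 0.05 (14.7% of all genes) and 0 called. Mx1 (1.1, limma adjusted p = 0.0803), Oas1a (0.87, 0.104) and Isg15 (0.64, 0.213) led, each with no overlap of the groups, as held for 4.54% of all genes. As deposited the list's median was -0.37, that of all genes -0.82, and 5 of the 16 were called lower, against 69.2% of all genes. With voom on fragments Mx1 was called (adjusted p = 0.0211). With tacrolimus 11 of 15 were above 0, led by Irf1 (0.21), Oasl (0.20) and Isg15 (0.19), with limma adjusted p-values from 0.656 to 0.785. The 7 red cell and platelet genes were above 0 with cyclosporine A, with a median of 1.43 log2 on rescaled values and 0.12 as deposited, led by the platelet chemokine Pf4 (24.0 ± 13.5 to 109 ± 99.2 rescaled FPKM, 1.91 log2, limma adjusted p = 0.159), Hbb-bs (1.43, 0.207) and Hbb (1.46, 0.306). Their summed level was 6008 rescaled FPKM in cyclosporine A replicate 4 and 608 to 2219 in the others of its group, and Hbb was at 0.91 without that library. The 6 tested with tacrolimus were below 0, led by Pf4 (-0.63, 0.554), Hbb (-0.42, 0.862) and Hba1 (-0.33, 0.869). Without DMSO/PEG vehicle replicate 1, whose summed level was 3341 FPKM against 772 to 1834 in the other vehicle libraries, Hbb was at -0.18 and Hba1 at -0.14. Haemoglobin genes are near copies whose reads may be shared. In the endothelium list Plvap was at -1.97 log2 with cyclosporine A (limma adjusted p = 0.0893, and 0.0336 without saline vehicle replicate 2), with Tek at -0.31 and Kdr at 0.24. As deposited all 9 genes of that list were called lower, with a median of -0.82 log2. On that scale 69.2% of all genes were called lower, and their median was also -0.82. With tacrolimus Plvap (0.16), Emcn (-0.08) and Flt1 (-0.08) had limma adjusted p-values from 0.721 to 0.912.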
